A study of Mus musculus with 64 samples.

Results

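The hepatocytes next to the central vein of a liver lobule express a set of genes that the hepatocytes next to the portal vein express at a low level or not at all, and 9 genes of this pericentral set were followed here through development and between the sexes. They were Glul, Oat, Cyp2e1, Cyp1a2, Axin2, Lgr5, Rnf43, Slc1a2 and Rhbg, found by symbol among the 23338 genes of the count data, where all 9 were present. The data were RNA-seq read counts of 64 samples of C57BL/6 mice (the substrain C57BL/6 J in the study's methods) without any engineered allele in the labels. They comprised 12 single eight-cell embryos at 2.5 days post coitum (6 male, 6 female), 4 ES cell lines (2 male, 2 female), 24 fetal livers at 17.5 days post coitum (12 male, 12 female) and 24 adult livers at 15 to 20 weeks of age (12 male, 12 female). The ES lines had been derived from eight-cell embryos and were grown in 2i medium with LIF, which contains CHIR99021, an inhibitor of GSK3 and thereby an activator of Wnt/β-catenin signalling. ES lines, fetal livers and adult livers received the same library kit. Libraries of the eight-cell embryos were instead amplified from the RNA of each embryo by an adapted single-cell method. The method and the stage cannot be told apart for them, and they entered no test between stages.

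Liver zonation is the division of metabolic work along the axis from the portal to the central vein. Around the central vein, endothelial cells secrete Wnt ligands and R-spondin, and β-catenin in the adjacent hepatocytes switches on genes of glutamine synthesis and xenobiotic metabolism, together with feedback genes of the Wnt pathway itself. Before birth the liver is also a site of blood formation, and the sharp zonal pattern of hepatocyte genes is known to be completed after birth. Whole tissue was sequenced here, so none of the values carries a position within the lobule. Nor can fewer cells of a type and less RNA per cell be told apart in any of them.

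The 9 genes cover 3 roles. Glul (glutamine synthetase), Oat (ornithine aminotransferase), Slc1a2 (a glutamate transporter) and Rhbg (an ammonium transporter) handle glutamate and ammonia. Cyp2e1 and Cyp1a2 encode cytochrome P450 enzymes that oxidise small molecules such as ethanol and caffeine. Axin2 (a scaffold of the β-catenin destruction complex), Lgr5 (an R-spondin receptor) and Rnf43 (a ubiquitin ligase that removes Wnt receptors) respond to Wnt signalling and also modulate it.

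Of the 9 genes, 7 had a promoter in the RefSeq table for GRCm38.p6, running from 250 bases before to 50 bases after the annotated start, with 2 promoters for Rnf43. Lgr5 and Rhbg were not in that table. A TATA box, searched as TATAAA on the strand of the gene, was found in Cyp2e1, with its first base 31 bases before the start, and in Cyp1a2, 29 bases before the start. It occurred in 8.32% of the 32851 promoters of the table. The core of the motif bound by TCF/LEF factors, searched as CTTTGAT on both strands, was found in Slc1a2, 207 bases before the start and on the opposite strand, where it reads ATCAAAG. This motif occurred in 3.73% of all promoters. A match is a description of letters and not a binding site. Oat, Axin2, Glul and both promoters of Rnf43 held neither motif. The promoters printed are the 3 with a match and, for comparison, that of Glul, chosen with the levels of these genes known. All are on GRCm38, written 5′ to 3′ on the strand of the gene, with the matches in capitals.

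Cyp2e1, chr7:140763569-140763868, plus strand: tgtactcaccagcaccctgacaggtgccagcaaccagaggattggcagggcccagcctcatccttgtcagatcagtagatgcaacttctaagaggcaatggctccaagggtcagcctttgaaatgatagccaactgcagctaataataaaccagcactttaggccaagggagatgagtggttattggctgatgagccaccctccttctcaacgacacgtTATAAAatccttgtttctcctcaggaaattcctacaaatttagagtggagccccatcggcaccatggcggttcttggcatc

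Cyp1a2, chr9:57683606-57683905, minus strand: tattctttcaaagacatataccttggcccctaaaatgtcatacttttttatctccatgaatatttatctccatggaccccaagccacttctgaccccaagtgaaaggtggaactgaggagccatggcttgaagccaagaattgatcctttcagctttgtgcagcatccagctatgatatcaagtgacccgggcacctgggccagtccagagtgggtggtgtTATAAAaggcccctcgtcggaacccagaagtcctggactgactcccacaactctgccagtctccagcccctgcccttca

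Slc1a2, chr2:102706188-102706487, plus strand, at a start inside the annotated gene: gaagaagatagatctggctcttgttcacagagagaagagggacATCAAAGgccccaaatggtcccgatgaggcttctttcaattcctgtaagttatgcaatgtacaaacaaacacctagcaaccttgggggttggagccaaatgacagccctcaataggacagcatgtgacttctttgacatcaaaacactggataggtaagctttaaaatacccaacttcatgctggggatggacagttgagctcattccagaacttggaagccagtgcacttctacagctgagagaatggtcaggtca

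Glul, chr1:153899679-153899978, plus strand: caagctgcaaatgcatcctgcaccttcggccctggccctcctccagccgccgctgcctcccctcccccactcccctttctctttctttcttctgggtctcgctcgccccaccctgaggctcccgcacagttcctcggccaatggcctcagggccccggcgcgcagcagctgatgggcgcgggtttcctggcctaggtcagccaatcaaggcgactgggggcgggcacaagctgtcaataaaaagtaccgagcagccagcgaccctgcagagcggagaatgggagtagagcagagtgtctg

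The printed promoters also differed in CG dinucleotides, with 17 in that of Glul, 4 in Cyp2e1, 3 in Cyp1a2 and 1 in Slc1a2, against a median of 7 over all promoters. Those not printed held 31 CG dinucleotides in Axin2, 22 in Oat, and 10 and 3 in the Rnf43 promoters.

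Levels are given in CPM, the reads of a gene in 1000000 reads on genes of its library. Depth was 1567583 to 4757610 reads on genes in adult livers, of which 7 had under 2000000, 5145371 to 8499603 in fetal livers, 9857929 to 10386931 in ES lines and 4659656 to 7725432 in eight-cell embryos. The 8 hepatocyte markers summed to 46502 to 62045 CPM in fetal and 56722 to 81204 CPM in adult livers, against 4.81 to 8.52 CPM in ES lines, whose 4 pluripotency markers summed to 1832 to 2055 CPM. The livers that stood apart numbered 3. Fetal female 14 held 8 intestinal transcripts at a sum of 1946 CPM, against 4.33 to 12.1 CPM in the other fetal livers. Fetal female 22 held 4 transcripts of adult liver (Mug1, Serpina3k, Mup20, Mup3) at 233 CPM, against 0 to 20.2 CPM in the others. Adult female 18 was the lowest adult liver for Glul, Cyp2e1, Cyp1a2, Slc1a2 and Rhbg. Where leaving one of them out changed a call or the side of an adjusted p of 0.1 for one of the 9 genes, the value without it is given beside the result.

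All 9 genes were called higher in adult than in fetal liver. Here 31.8% of the 13026 genes tested were called higher in adult liver and 67.2% in either direction. A gene was called at a Benjamini-Hochberg adjusted p under 0.1 and a log2 difference beyond 0.5 in edgeR's quasi-likelihood test, fitted with sex as a covariate. The median log2 difference of the 9 genes was 3.0, against −0.05 over all genes tested. Axin2 and Cyp1a2 did not pass the filter on low counts in fetal livers alone and entered this test through their adult reads. All 9 calls were also made in males only and in females only. For 5 of the 9 (Glul, Oat, Cyp2e1, Cyp1a2 and Slc1a2) the lowest adult liver lay above the highest fetal liver, as it did for 10.3% of all genes tested.

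**Figure D1:**
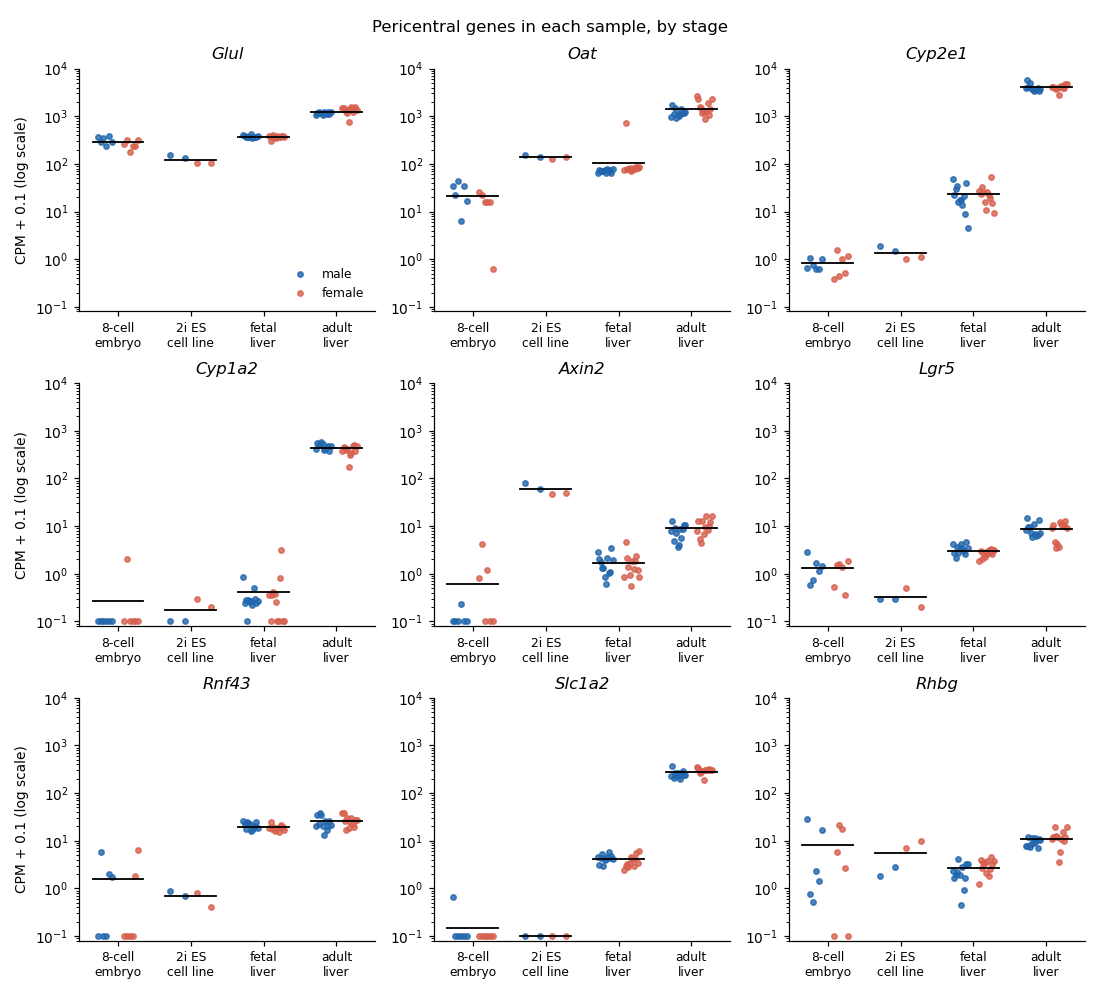
CPM of each of the 9 genes (vertical axes, log scale after adding 0.1) in every sample of the 4 stages, split by sex, with the group mean as a line. Adult livers are the highest group for every gene but Axin2, whose 4 ES lines lie at 47.0 to 79.8 CPM, above all livers, and the single high fetal point of Oat, at 713 CPM, is fetal female 14.

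Cyp1a2, which metabolises caffeine and aromatic amines, differed most. Its 24 fetal livers had a lowest value of 0, a median of 0.173 and a highest value of 3.03 CPM, with no read in 6 of them. The 24 adult livers ran from 175 through a median of 440 to 582 CPM. The groups lay far apart: all fetal livers together held 52 Cyp1a2 reads and all adult livers 29403. The ratio of their pooled CPM was 1383 (95% interval 1054 to 1852, counting error only), and the fitted log2 difference was 10.84 ± 0.20 (SE, n = 24 and 24, edgeR). Cyp1a2 was tested only through its adult reads. Of the 52 fetal reads, 21 came from fetal female 22, and without it the difference was 11.46.

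Cyp2e1, the ethanol-oxidising P450, was detected in every liver. Fetal livers had a lowest value of 4.47, a median of 21.4 and a highest value of 52.2 CPM, the highest again being fetal female 22. Adult livers ran from 2813 through a median of 3976 to 5622 CPM. The log2 difference was 8.02 ± 0.20 (SE, n = 24 and 24, adjusted p = 4.41e-36, edgeR), a 259-fold fitted difference. Among fetal livers it also varied widely, with a coefficient of variation of 56.2% in males and 49.9% in females, where read counting alone gives 8.36% and 7.82%.

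Slc1a2, which takes up glutamate, had a fetal range of 2.31 to 5.93 CPM around a median of 3.99. In adult liver the lowest value was 187, the median 270 and the highest 375 CPM. The fitted difference was 6.66 ± 0.09 on the log2 scale (SE, n = 24 and 24, adjusted p = 4.13e-52, edgeR), or 101-fold, and no fetal liver came near the adult range.

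Glul, whose enzyme joins glutamate and ammonia to glutamine, already had a high fetal level, between 309 and 414 CPM with a median of 370. Adult livers had a lowest value of 750, a median of 1218 and a highest value of 1556 CPM. The groups did not overlap, and the log2 difference of 2.30 ± 0.05 (SE, n = 24 and 24, adjusted p = 7.50e-44, edgeR) was 4.94-fold. The lowest fetal value belonged to fetal female 14 and the lowest adult value to adult female 18.

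Oat, which links ornithine to glutamate, had 23 fetal livers between 64 and 85.4 CPM and fetal female 14 at 713 CPM. Adult livers ran from 854 through a median of 1208 to 2714 CPM, above all fetal livers including that one. The log2 difference was 4.41 ± 0.22 (SE, n = 24 and 24, adjusted p = 8.92e-24, edgeR) and was 4.76 without fetal female 14. The part of the intestinal transcripts in the Oat value of that liver was not tested.

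Rhbg, an ammonium transporter of the Rh family, was a low transcript in both. Its fetal values had a lowest value of 0.346, a median of 2.53 and a highest value of 4.47 CPM, and its adult values ran from 3.54 through 10.7 to 19.6 CPM. All but 1 of the 24 adult livers lay above the highest fetal liver. The log2 difference was 2.62 ± 0.15 (SE, n = 24 and 24, adjusted p = 3.86e-23, edgeR).

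The 3 Wnt feedback genes had the lowest levels per length in adult liver beside Rhbg, and each overlapped between the stages. Axin2 had 0.467 to 4.64 CPM in fetal livers, with a median of 1.27, and 3.55 to 16.6 CPM in adult livers, with a median of 8.57. For Axin2, 21 of 24 adult livers lay above every fetal liver, and the log2 difference was 3.0 ± 0.18 (SE, n = 24 and 24, edgeR). Axin2, too, was tested only through its adult reads. Its fetal values rest on 3 to 32 reads per liver, the most in fetal female 14.

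Lgr5 ran from 1.79 through 2.86 to 4.59 CPM in fetal livers and from 3.38 through 9.01 to 14.6 CPM in adult livers. Again 21 of 24 adult livers exceeded all fetal ones, with a log2 difference of 2.06 ± 0.13 (SE, n = 24 and 24, adjusted p = 1.01e-21, edgeR). Here too the depth is low, at 11 to 32 reads per fetal and 9 to 35 reads per adult liver.

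Rnf43 differed least. Its fetal livers had a lowest value of 15.1, a median of 19 and a highest value of 25.3 CPM, and its adult livers 12.9, 25.1 and 38.8 CPM, so that 12 of 24 adult livers lay within or below the fetal range. The log2 difference was 0.93 ± 0.09 (SE, n = 24 and 24, adjusted p = 1.63e-14, edgeR). It was also the only one of the 9 whose call depended on the scaling. With library totals in place of TMM the median of all genes moved from −0.05 to −0.61 and Rnf43 to 0.37, which is above that median but short of the call. When library size was set to the reads of the 8 hepatocyte markers, the all-gene median was −0.95 and Rnf43 was 0.03 (adjusted p = 0.741, edgeR). Per 1000 reads of those markers it had 0.373 ± 0.062 reads in fetal and 0.378 ± 0.109 in adult livers (SD, n = 24 each).

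**Figure D2:**
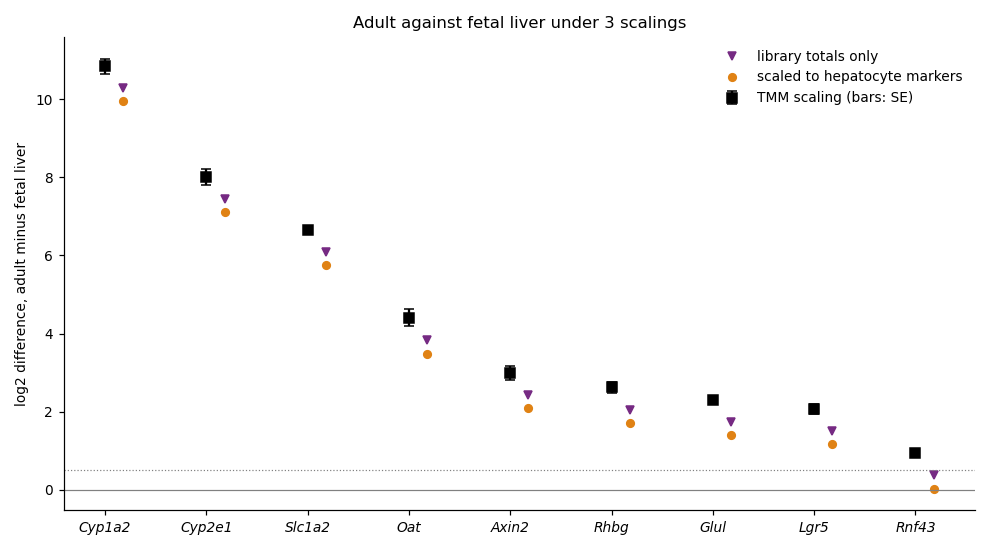
Fitted log2 difference between adult and fetal liver for the 9 genes (24 livers each) under TMM scaling (squares, bars are the SE), library totals only (triangles) and scaling to 8 hepatocyte markers (circles), with dotted and solid lines at 0.5 and 0. Values run from 10.84 for Cyp1a2 to 0.93 for Rnf43 under TMM, and Rnf43 alone lies under 0.5 with the other scalings, at 0.37 and 0.03.

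Markers of other cell types were also compared between these stages. Of all genes tested, 31.8% were called higher in adult liver and 35.3% lower, 67.2% in either direction. All 6 erythroid markers tested were called lower in adult liver, and the list summed to between 4423 and 6550 CPM in fetal livers and between 15 and 198 CPM in adult livers. The 4 globin genes of the list had no read in adult livers. They stayed below the filter with the fetal livers included and were not tested. Hba-a1 had no read in the 12 fetal females either, so these zeros show no stage difference. All 8 myeloid markers were called lower, with sums of 1460 to 2753 CPM and 11.7 to 48.7 CPM. Of these, 5 erythroid and 7 myeloid markers were below the filter in adult livers alone and were tested only through their fetal reads. Of the other types, 2 of 7 endothelial markers were called higher and 1 lower, 2 of 6 Kupffer cell markers higher and 3 lower, 2 of 6 stellate cell markers higher and 2 lower, and 1 of 5 cholangiocyte markers higher and 3 lower. Of the hepatocyte markers, 7 of 8 were called higher in adult liver, with a list median of 0.97. Scaled to the hepatocyte markers, the other 8 genes kept their call, at log2 differences from 1.16 to 9.95. The part of erythroid and myeloid RNA in the differences under TMM was not tested.

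Compared per kilobase of annotated exon, Cyp2e1 was the most abundant of the 9 in adult liver, at 2193 ± 311 RPKM (CPM per kilobase, mean ± SD, n = 24). Oat followed at 651 ± 218 RPKM and Glul at 447 ± 65.8 RPKM, then Cyp1a2 at 224 ± 45.1 and Slc1a2 at 22.6 ± 3.99 RPKM. The ranges of mean ± SD of Oat and Glul overlapped. Rnf43 (5.59 ± 1.58), Rhbg (5.46 ± 1.89), Axin2 (2.1 ± 0.85) and Lgr5 (1.82 ± 0.67 RPKM) lay far below, where Rnf43 and Rhbg, and Axin2 and Lgr5, overlapped within their SD. In fetal liver the order was different, with Glul first at 133 ± 7.43 RPKM, before Oat (47.3), Cyp2e1 (12.5) and Rnf43 (4.34 RPKM). Of all reads on the 9 genes, Glul took a mean of 72.5% in fetal liver and 16.8% in adult liver, whereas Cyp2e1 took 4.39% and 54.3%. Together the 9 genes made up 528 CPM in fetal liver and 7443 CPM in adult liver.

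Between the sexes within adult liver, none of the 9 genes was called, against 9.49% of the 10372 genes tested there. DESeq2 likewise called 0, against 9.59% of all genes. Without the limit on log2, 4 had an adjusted p under 0.1 in edgeR, where 32.8% of all genes tested did, and 5 had an unadjusted p under 0.05, where 36.8% did. The male and female ranges overlapped for all 9, while 2.80% of all genes tested had ranges that did not. Differences below are male minus female, each over 12 males and 12 females.

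Glul was lower in males by a small margin. Male livers had a lowest value of 1063, a median of 1158 and a highest value of 1239 CPM, and female livers 750, 1389 and 1556 CPM. In all, 10 of 12 females lay above the highest male, and adult female 18 lay below the lowest. The log2 difference was −0.22 ± 0.07 (SE, 95% interval −0.37 to −0.08, adjusted p = 0.0239, edgeR), and without adult female 18 it was −0.27 (adjusted p = 5.09e-05). Over the 32 alternatives run it stayed between −0.27 and −0.19, with an adjusted p of up to 0.157 (edgeR or DESeq2). The spread also differed, with a coefficient of variation of 5.12% in males and 16.5% in females.

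Male livers had 939, 1151 and 1686 CPM of Oat as lowest, median and highest value, and female livers 854, 1463 and 2714 CPM. Here 4 females exceeded all males. The difference was −0.44 ± 0.16 on the log2 scale (SE, 95% interval −0.75 to −0.12, adjusted p = 0.0468, edgeR), and −0.47 without adult female 18. Slc1a2 went the same way, with males at 199, 239 and 375 CPM and females at 187, 301 and 352 CPM (lowest, median and highest), a difference of −0.24 ± 0.09 (SE, 95% interval −0.41 to −0.07, adjusted p = 0.0444, edgeR), and −0.28 without adult female 18 (adjusted p = 0.00622). Cyp1a2, the P450 gene with the largest stage difference, was the only transcript with a higher male mean among those under an adjusted p of 0.1, and its lowest, median and highest values were 372, 476 and 582 CPM for males against 175, 404 and 495 CPM for females. Its difference was 0.26 ± 0.11 (SE, 95% interval 0.04 to 0.48, adjusted p = 0.0977, edgeR). Without adult female 18, the lowest of all, it was 0.19 (adjusted p = 0.0675, edgeR). When each of the 24 livers was left out in turn, its adjusted p ran from 0.0614 to 0.131 and was above 0.1 in 11 of the 24 fits.

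Cyp2e1 gave −0.03 ± 0.08 (SE, 95% interval −0.18 to 0.13, adjusted p = 0.848, edgeR), from 3449 to 5622 CPM in the male livers against 2813 to 4763 CPM in the female livers. Its interval holds no difference beyond 0.18 on the log2 scale in either direction. The intervals of the low transcripts were wider. They were −0.76 to 0.02 for Axin2, −0.72 to −0.03 for Rhbg, −0.44 to 0.16 for Rnf43 and −0.36 to 0.45 for Lgr5, with adjusted p-values of 0.173, 0.114, 0.545 and 0.915 (edgeR). Without adult female 18, its lowest adult liver, Rhbg was −0.47 (adjusted p = 0.0207, edgeR), and it was also under an adjusted p of 0.1 without adult female 19 (0.0672) or 22 (0.0991). Axin2 was under it without adult female 16 (0.0887). Rhbg varied in males by 18.2%, where counting alone gives 19.9%, so its male spread is no larger than read counting.

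**Figure D3:**
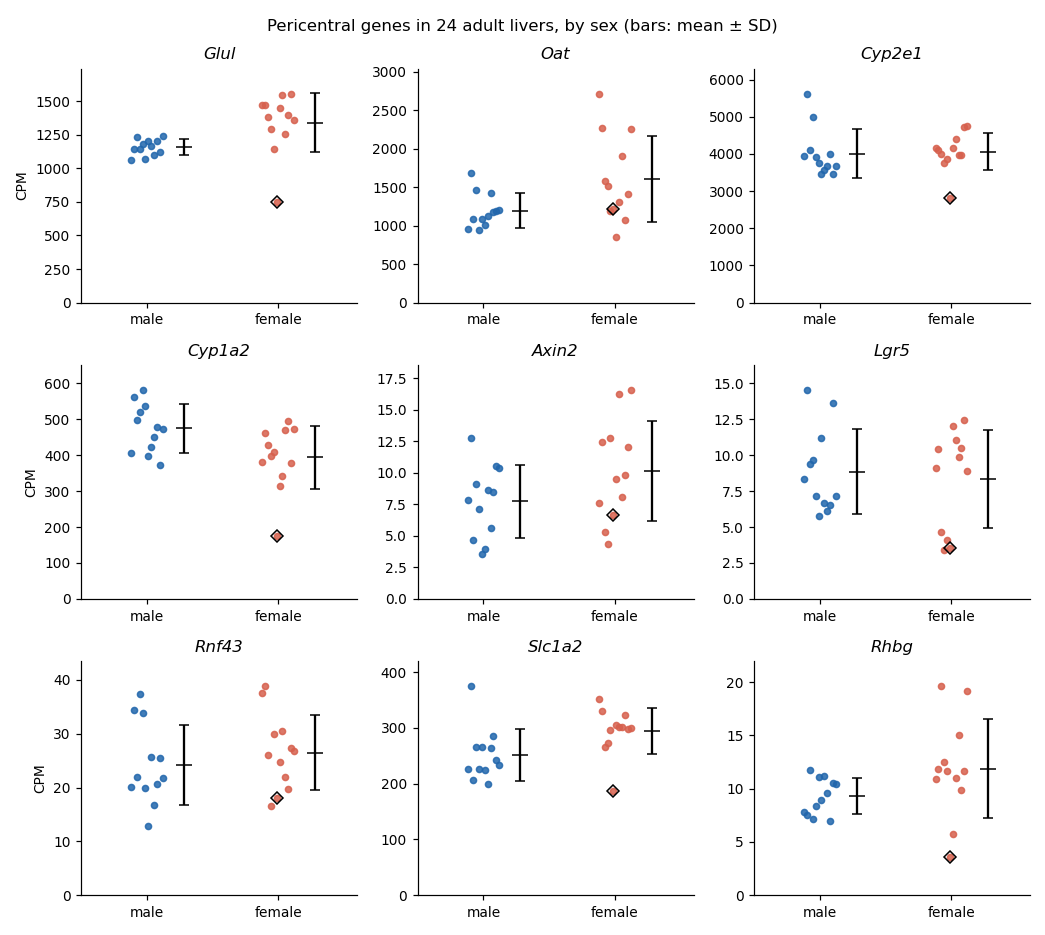
CPM of the 9 genes in the 12 male and 12 female adult livers, each point a liver, with the group mean as a line and adult female 18 drawn as a diamond. Male and female ranges overlap for all 9, and in Glul 10 of 12 female livers lie above the highest male liver at 1239 CPM.

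The sexes also differed in other values. Of the adult markers, Alas2 was the only erythroid gene tested and was called higher in males. Called lower in males were 3 of 6 Kupffer cell markers, 1 of 7 endothelial markers and the only myeloid and only cholangiocyte marker tested. Of all genes tested, 3.01% were called higher and 6.48% lower. All 7 endothelial markers had an unadjusted p under 0.05 (edgeR), where 36.8% of all genes did. Of 6 stellate cell markers 0 were called. Of 8 hepatocyte markers 0 were called by edgeR or DESeq2, with 4 at an unadjusted p under 0.05. The summed hepatocyte markers lay between 56722 and 72676 CPM for males and between 65001 and 81204 CPM for females. Reads with no unique alignment made up 42.2% to 61.1% of male and 32.7% to 43.2% of female libraries. Their part in the small differences of Glul, Oat and Slc1a2 was not tested. Per 1000 hepatocyte marker reads the Glul means were 18.4 ± 1.83 in males and 18.9 ± 3.51 in females (SD, n = 12 each), and those of Slc1a2 were 3.98 ± 0.66 and 4.16 ± 0.72. For Oat they were 18.9 ± 3.39 in males and 22.9 ± 9.17 in females, for Cyp1a2 7.55 ± 1.18 and 5.58 ± 1.40, and for Cyp2e1 63.4 ± 9.04 and 57.2 ± 8.33. No test was run on these ratios.

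Fetal livers were compared by sex in the same way, with 7 of the 9 genes above the filter. Of these only Oat was called, lower in males, as were 0.828% of the 12930 genes tested, with 4.64% called in either direction. Oat had 64, 71.7 and 79.3 CPM as lowest, median and highest value for males, whereas female livers had 72.5, 80.0 and 713 CPM. The log2 difference of −0.88 ± 0.36 (SE, n = 12 and 12, adjusted p = 0.0696, edgeR) was −0.16 (adjusted p = 0.00277) without fetal female 14, which is not a call, and 6 of 12 males lay below all females. DESeq2 gave −0.15 and called 0 of the 7, against 4.39% of all genes. Its defaults can replace outlying counts, so fetal female 14 may not have entered that fit as observed. Lgr5 was 0.33 ± 0.13 (SE, n = 12 and 12, adjusted p = 0.0598, edgeR), under the limit on log2, and its values overlapped, at 2.0 to 4.59 CPM for males against 1.79 to 3.17 CPM for females. Adjusted p-values of the other 5 lay between 0.127 and 0.958, and that of Rnf43 moved from 0.140 to 0.0583 without fetal female 14, at a log2 difference of 0.20. Without reads of no unique alignment, 39.9% to 49.0% of fetal male and 34.1% to 38.1% of fetal female reads lay outside genes. The sexes did not overlap in this share, and its part was not tested.

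Whether the sex difference itself changed from fetal to adult liver was tested as an interaction over the 48 livers. It was called for 0 of the 9 genes, against 13.7% of 13026 genes tested. Slc1a2 came nearest, at −0.39 ± 0.17 (SE, n = 24 and 24, adjusted p = 0.0888, edgeR), and Glul was the other with an unadjusted p under 0.05, at −0.18 ± 0.09 (adjusted p = 0.121), where 37.4% of all genes were under it. DESeq2 called 1, against 14.4% of all genes, namely Cyp1a2 at 1.30 (adjusted p = 0.0378). Its fetal livers hold 0 to 21 reads, and the 21 are those of fetal female 22. Over the 10 alternatives run, the Cyp1a2 interaction ran from 0.25 to 1.36. Without fetal female 14 Slc1a2 was −0.36 (adjusted p = 0.132, edgeR). Without the 3 livers that stood apart Glul was −0.22 (adjusted p = 0.00741, edgeR), under the limit on log2, and Axin2 was called, at −0.78 (adjusted p = 0.0932, edgeR). Over all 48 livers Axin2 was −0.38 (adjusted p = 0.490, edgeR). Cyp1a2 and Axin2 were below the filter in fetal livers alone and entered the interaction only through their adult reads.

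Fetal female 14 and 22 shaped several fetal values. In fetal female 14, Oat and Axin2 were the highest and Glul the lowest of the 24 fetal livers. In fetal female 22, Cyp2e1 and Cyp1a2 were the highest, at 52.2 and 3.03 CPM, against at most 47.4 and 0.740 CPM in the other 23. Without fetal female 14 the mean fetal level of Oat was 75.3 ± 6.24 CPM (SD, n = 23), in place of 102 ± 130 CPM (n = 24).

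**Figure D4:**
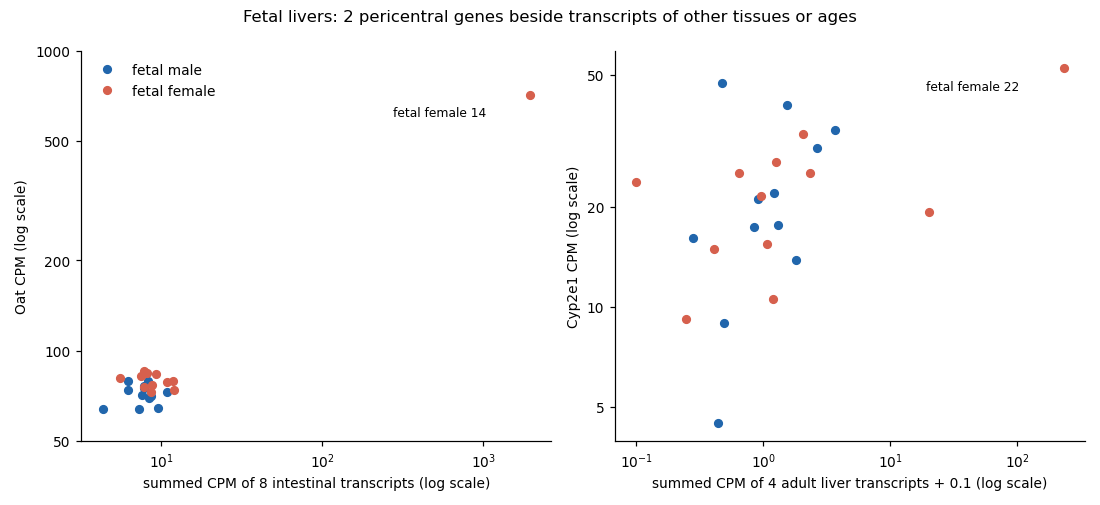
Fetal livers plotted by the summed CPM of 8 intestinal transcripts against Oat, and by the summed CPM of 4 transcripts of adult liver against Cyp2e1, both on log axes. Fetal female 14 lies alone at 1946 and 713 CPM, and fetal female 22 has the highest values of the other pair, at 233 and 52.2 CPM.

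In ES cells the Wnt feedback gene Axin2 was high and the P450 genes were nearly absent. Axin2 had 79.8 and 58.9 CPM in the male lines and 47.0 and 50.1 CPM in the female lines, all above the highest of the 48 livers at 16.6 CPM. Fetal liver was 31.5-fold lower than ES cells, a log2 difference of −4.98 ± 0.22 (SE, n = 24 and 4, edgeR), tested only through the ES reads. Adult liver was 4.13-fold lower, a log2 difference of −2.05 ± 0.18 (SE, n = 24 and 4, adjusted p = 1.02e-12, edgeR). These fits share the 4 ES lines. Lgr5 and Rnf43 did not share this pattern, with 0.101 to 0.400 CPM and 0.304 to 0.770 CPM in ES lines. Both rest on 1 to 8 reads per line.

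Of the 8 genes tested between ES cells and fetal liver, 5 were called higher and 2 lower in fetal liver, where 40.9% and 35.5% of 14858 genes tested were, 76.4% in either direction. Cyp2e1 was higher by 4.35 ± 0.59 and Glul by 1.80 ± 0.08 on the log2 scale (SE, n = 24 and 4, adjusted p at most 1.25e-07, edgeR). The fitted differences of Rnf43 and Lgr5 were 5.21 ± 0.20 and 3.80 ± 0.29 (SE). Slc1a2 had no read in any ES line, so fetal liver was at least 13-fold higher, with the ES lines set to 3 reads in the shallowest line. Cyp1a2 had 3 reads over the 4 lines and was not tested against fetal liver. Lgr5, Rnf43 and Slc1a2 did not pass the filter in ES lines alone, nor Axin2 in fetal livers alone, so these 4 entered the test only through the stage where they are high.

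Rhbg was called lower in fetal liver, with a log2 difference of −0.77 ± 0.31 (SE, n = 24 and 4, adjusted p = 0.0206, edgeR). The male ES lines had 1.73 and 2.72 CPM and the female lines 7.0 and 9.94 CPM, and only the latter lay above all fetal livers. Without ES female 4 the difference was −0.43 (adjusted p = 0.245), so the call rests on that line. Oat had 153, 142, 128 and 137 CPM in the ES lines, above every fetal liver but fetal female 14. It was not called (−0.39, adjusted p = 0.390, edgeR), and without fetal female 14 it was called, at −0.70 (adjusted p = 4.27e-14). DESeq2 called it, also at −0.70 (adjusted p = 3.70e-40), and so called 8 of the 8 genes, against 76.5% of all genes. Its defaults can replace outlying counts, so the Oat count of fetal female 14 may not have entered as observed. That fit is therefore not separate support for the call.

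Against ES cells, adult liver was called higher for 8 of the 9 genes, all but Axin2, where 40.2% of 13102 genes tested were called higher and 41.4% lower (81.6% in either direction). Glul, with 153, 132, 104 and 102 CPM in the ES lines, was higher by 4.05 ± 0.15 and Oat by 4.01 ± 0.28 on the log2 scale (SE, n = 24 and 4, adjusted p at most 5.12e-14, edgeR). Cyp2e1 had 0.900 to 1.83 CPM in ES lines and was higher in adult liver by 12.29 ± 0.23 (SE, n = 24 and 4, adjusted p = 6.25e-33, edgeR). Slc1a2 was at least 897-fold higher, with the same floor of 3 reads. Cyp1a2, Lgr5, Rnf43 and Slc1a2 were below the filter in ES lines alone and were tested here only through their adult reads. For Cyp1a2 the ratio of pooled CPM was 5993 (95% interval 2051 to 29063, counting error only). Per kilobase, Oat (65.1 RPKM), Glul (44.0 RPKM) and Axin2 (13.8 RPKM) led in ES cells, and these took 42.8%, 37.1% and 17.7% of the reads on the 9 genes.

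Eight-cell embryos expressed mainly Glul, at 288 ± 61.6 CPM (SD, n = 12, range 180 to 382), which was 89.7% of their reads on the 9 genes. Oat followed at 0.534 to 42.7 CPM. Rhbg was uneven, with a median of 2.37 and a highest value of 28.9 CPM, and 2 embryos without a read. Slc1a2 and Cyp1a2 had no read in 11 of 12 embryos, Axin2 in 8 and Rnf43 in 7. Lgr5 had 2 to 15 reads and Cyp2e1 2 to 8 reads in each embryo. In amplified RNA of a single embryo a value of 0 does not show that the transcript was absent.

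Ordered by mean level, Glul ran from adult over fetal liver and eight-cell embryos to ES cells, with fetal livers and embryos overlapping in range. Cyp2e1 ran from adult over fetal liver to ES cells and embryos, the last pair overlapping. For Axin2 the order was ES cells, adult liver, fetal liver and embryos. Rhbg had its neighbours overlapping at every step, and Cyp1a2 at every step below adult liver.

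Across the 24 adult livers, the levels of the 9 genes were compared pairwise, after log2 transformation and centring within sex. These correlations are descriptions over livers that share an RNA preparation and a depth for all genes. No r over pairs of other genes was set beside them. Whether the values are particular to these 9 genes was therefore not tested. Of 36 pairs, 35 had a positive Pearson's r, with a median of 0.42 and a range of −0.01 to 0.73. The highest belonged to Cyp2e1 and Slc1a2. Adult female 18, low for 5 of the genes, carried part of this: without it the median was 0.28, 27 of 36 pairs were positive and the range was −0.40 to 0.60. Glul and Cyp1a2 turned from 0.62 to −0.18, and Cyp2e1 and Slc1a2 stayed at 0.60. In the 17 adult livers of at least 2000000 reads the median was 0.42. The median over the 24 fetal livers was 0.14 with 26 of 36 positive, and 0.01 with 18 positive without fetal female 14 and 22. In fetal males Cyp1a2, Lgr5 and Slc1a2 varied about as much as read counting alone gives. For Cyp1a2 this was 86.6% against 85.8% and for Slc1a2 18.9% against 19.4%, while the other genes varied more than counting. In fetal females this held for Lgr5 alone. The part of read counting in the lower fetal medians was not tested.

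**Figure D5:**
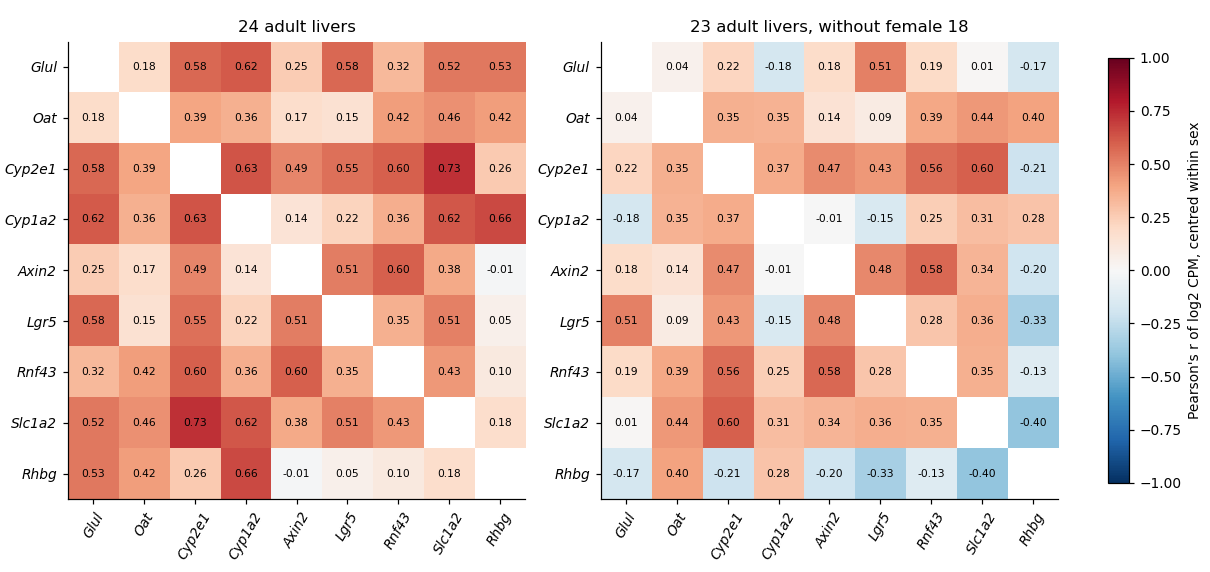
Pearson's r between the log2 CPM of each pair of the 9 genes, centred within sex, over 24 adult livers and over the 23 without adult female 18. The median over 36 pairs is 0.42 with that liver and 0.28 without it, and r between Glul and Cyp1a2 turns from 0.62 to −0.18.

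Other genes whose adult levels were most like each member, apart from Cyp2e1, were found over the same 24 livers. For Oat it was Lhpp (r = 0.88, Spearman's rho 0.90, and 0.89 without adult female 18), followed by Cyb5 and Cyp2a5. Glul was most like Mgll (r = 0.88, rho 0.71, and 0.69 without that liver) and Cyp1a2 most like Rdh16 (r = 0.86, rho 0.63, and 0.67 without it). The nearest were Sh3glb1 for Lgr5 (r = 0.85), Ldhd for Rhbg (0.80), Npr3 for Slc1a2 (0.79), Mid1ip1 for Rnf43 (0.79) and Impg2 for Axin2 (0.77). In that order rho was 0.87, 0.57, 0.71, 0.72 and 0.73. Without adult female 18, r was 0.82, 0.74, 0.65, 0.77 and 0.76. Each gene named here was picked as the highest r over all genes compared.

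Of 21 other pericentral hepatocyte genes, 20 were called higher and 1 lower in adult than in fetal liver, with a median log2 difference of 3.91, where 31.8% of all genes tested were called higher and 35.3% lower. The carboxylate transporter Slc13a3 was lower, at −1.90 ± 0.11 (SE, n = 24 and 24, adjusted p = 1.09e-21, edgeR). Genes of the portal side were called in the same direction: of 15 periportal genes tested, 13 were called higher, with a median of 3.31, among them Cyp2f2 at 6.94 ± 0.11 (adjusted p = 3.22e-47, edgeR). Of 13 other Wnt target genes, 7 were tested, 3 called higher and 1 lower. Notum, a secreted Wnt inhibitor, had 0.400 ± 0.265 CPM in fetal and 44.9 ± 9.95 CPM in adult livers (SD, n = 24 each), and the transcription factor Lef1 had a fitted log2 difference of −4.55 ± 0.27 (SE). Notum was below the filter in fetal livers alone and Lef1 in adult livers alone, so both were tested only through the stage where they are high. The same held for 4 of the 20 other pericentral genes called higher and for 0 of the 13 periportal genes.

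Of 19 genes that send or receive the Wnt signal, 9 were called higher and 4 lower in adult liver. Beside the lists of this paragraph, 31.8% of all genes tested were called higher and 35.3% lower, 67.2% in either direction. The R-spondin receptor Lgr4 was higher by 1.08 ± 0.04 and the Wnt receptor Fzd5 lower, at −1.27 ± 0.08 (SE, n = 24 and 24, adjusted p at most 3.26e-21, edgeR). Glutamate and ammonia genes related to Glul, Oat, Slc1a2 and Rhbg moved both ways, with 5 of 14 higher and 8 lower. Otc, an enzyme of the urea cycle, was higher by 2.90 ± 0.04 (SE, n = 24 and 24, adjusted p = 1.32e-52, edgeR). Rhag, the erythroid relative of Rhbg, had a fitted difference of −11.75 ± 0.13 (SE), and was 1 of 4 among the 8 lower genes that did not pass the filter in adult livers alone. Of 6 tested relatives and partners of the P450 genes, 3 were higher and 1 lower, among them the redox partner Por at 1.56 ± 0.10 (SE, n = 24 and 24, adjusted p = 1.14e-19, edgeR).

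By sex within adult liver the other pericentral genes held more calls than the 9, with 9 of 21 lower in males, against 6.48% and 3.01% of all genes tested. Cyp2c37, another P450 gene, was at 406 ± 82.4 CPM for males against 1046 ± 153 CPM for females (SD, n = 12 each), a log2 difference of −1.38 ± 0.10 (SE, adjusted p = 1.03e-11, edgeR). Among the Wnt targets Notum was lower in males, at −0.50 ± 0.09 (SE, n = 12 and 12, adjusted p = 3.93e-05, edgeR), where males had 37.4 ± 5.31 CPM against 52.4 ± 7.53 CPM for females (SD). DESeq2 called no gene of that list. Of 15 Wnt signal genes 1 was called, Fzd5, higher in males by 0.65 ± 0.13 (SE, n = 12 and 12, adjusted p = 0.000353, edgeR). Of 15 periportal genes 1 was higher and 1 lower in males, Cyp2f2 at 0.70 ± 0.07 and Aldh1b1 at −1.30 ± 0.14 (SE, n = 12 and 12, adjusted p at most 1.12e-07, edgeR). Of 10 glutamate and ammonia genes 0 were called by edgeR or DESeq2, with 5 at an unadjusted p under 0.05, and 2 of 6 partners of the P450 genes were lower in males, Nqo1 and Por.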

How the data were processed

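RNA was measured in 64 samples grouped by the stage and gender labels. Per the labels and the study's methods, the authors aligned reads to mm10 with TopHat2 2.0.4, Bowtie2 2.1.0 and SAMtools 0.1.18, removed duplicates with Picard and counted reads per gene with HTSeq, and the deposited values are whole-number raw counts with no normalization. The strand setting of the counting is not given in the sources used here, so reads on Glul, Oat, Axin2, Lgr5, Rnf43, Slc1a2 and Rhbg cannot be told apart from those of annotated genes that overlap them. The 5 entries per sample that name no gene were left out of library sizes, and they held between 8.63% and 49.0% of reads (no feature) and between 18.7% and 61.1% (not unique). Libraries were sequenced 12 to a lane, and lanes are not in the labels.

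From the counts, CPM per library was computed, without further scaling, as the level of a gene. Tests used edgeR 4.0.16 in R 4.3.3 (TMM, filterByExpr, robust quasi-likelihood F test), with Benjamini-Hochberg adjustment over all genes tested and calls at an adjusted p under 0.1 and an absolute log2 above 0.5. Fitted differences therefore follow TMM and not CPM. The SE was derived from the F statistic, and 95% intervals are 1.96 SE on each side. Each comparison was fitted on its own groups. Replicates are separate embryos, lines or animals, and replicates of a group differed beyond sampling noise in every group. The code of the tests was checked on simulated counts with few changed genes and a fixed dispersion, unlike the stage comparisons here. Genes of low counts were not among those changed. Alternatives were DESeq2 1.42.0, other scalings, filters and thresholds, a replicate block, and leaving out libraries. DESeq2 kept its defaults, which can replace outlying counts. By sex in adult liver, the share of reads outside genes was also fitted as a covariate. Lengths are unions of annotated exons (GENCODE, GRCm38), and promoters are from RefSeq. Intervals on reads cover counting error only.

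Named were the 9 members in every comparison, of each related gene list the genes with the smallest adjusted p in each direction, and the 3 genes most like a member, except genes not reported here. The members and lists were chosen with earlier results of these data known. The intestinal and adult liver transcripts, and the alternatives without the 3 livers that stood apart, were chosen after seeing the data. The fit with the share of reads outside genes as a covariate was not planned either.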

Additional observations from a re-analysis of the deposited data

Results flagged for a closer look

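Eight-cell embryos were compared gene by gene within a sex, in groups of 6. Of the 16 such groups with reads, 3 had reads in 1 embryo only, where the gap to the others is the whole range whatever the value. Of the other 13 groups, 3 had an embryo whose gap to the nearest of the others was larger than Dixon's 95% limit. For normally distributed values, chance alone passes that limit in about 1 group in 20. In these 3 groups, 3 or 4 of the 6 embryos had no read, so that rate need not hold for them. In embryo female 8, Cyp1a2 had 1.99 CPM from 11 reads while the other 5 females had none, and Axin2 was also highest there, with 4.17 CPM from 23 reads. Rnf43 was highest in embryo male 2 at 5.83 CPM (36 reads) and in embryo female 12 at 6.23 CPM (35 reads). Axin2 in embryo male 4, at 0.129 CPM, was a single read, and Slc1a2 in embryo male 1, at 0.563 CPM, was 3 reads, in groups otherwise without a read. The cause was not tested.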

How the results depend on the processing

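The direction of all 9 genes between adult and fetal liver, and the call of all but Rnf43, held under every alternative run. Rnf43 lost its call with library totals (0.37), with hepatocyte scaling (0.03) and at an adjusted p under 0.05 with log2 beyond 1. That stricter limit moved the count of all genes called to 5653 between adult and fetal liver, 270 by sex in adult liver, 52 by sex in fetal liver and 495 for the interaction. Without a limit on log2 the counts were 3400, 4807 and 4384 for the last 3, with 4, 2 and 1 of the 9 genes called. Without a filter on low counts they were 1518 by sex in adult and 1057 in fetal liver. Higher calls made up 47.4% of calls between adult and fetal liver with TMM, 25.6% with library totals and 17.2% with hepatocyte scaling, 49.3% against 35.7% with library totals between ES cells and adult liver, and 82.2% by sex in fetal liver against 61.0% without a filter.

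By sex in fetal liver, 0 of the 9 were called with DESeq2, at the stricter limit, without fetal female 14, and without both that liver and fetal female 22. Between ES cells and fetal liver Oat was called with DESeq2, at −0.70, so that 8 of 8 were. For the interaction 1 was called with DESeq2 (Cyp1a2) and 1 without the 3 livers that stood apart (Axin2), both below the filter in fetal livers alone. Small differences changed sign. In adult liver by sex, Cyp2e1 was 0.00251 without a filter and −0.073 to 0.00198 when each liver was left out in turn, and Lgr5 −0.031 to 0.12. In fetal liver by sex, Glul was −0.017 without fetal female 14, 0.012 without fetal female 22 and −0.00402 without both, and Cyp2e1 −0.031, 0.14 and 0.17 in that order. For the interaction Oat was −0.23 without fetal female 14, and without the 3 livers Oat was −0.27, Cyp2e1 −0.18 and Rhbg −0.053. The cause was not tested.

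Titles share numbers across groups, but same-numbered livers did not deviate together (r over 24 pairs −0.09 to 0.04), which gives no sign that the numbers pair the samples. Whether the numbers follow a shared order of processing was not tested. With the number as a replicate block the counts of all genes called were 8753 between adult and fetal liver, 1661 for the interaction, 11096 between ES cells and fetal liver and 10366 between ES cells and adult liver. Between ES cells and fetal liver the block gave −0.86 for Oat and −0.06 for Rhbg, and it changed no other call of the 9. However, every liver that shares a number with an ES line is male. With sex also fitted, the block fits against ES cells rest on the male ES lines and the male livers of the same numbers. The Rhbg value thus leaves out the female ES lines, at 7.0 and 9.94 CPM. These fits cannot check the comparisons of all ES lines with all livers. With 7 adult livers under 2000000 reads, differences of Axin2, Lgr5 and Rhbg are limited by depth.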
